A study of Mus musculus with 6 samples.

Results

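Taste bud cell genes were examined in mouse tongue after exposure to 4-nitroquinoline 1-oxide (4NQO), a DNA-damaging oral carcinogen. The 10 genes were chosen as textbook markers of the cells of taste buds: Gnat3, Trpm5, Plcb2, Tas1r1, Tas1r3, Itpr3, Pkd2l1, Entpd2, Snap25 and Shh. A gene was measured if at least 1 probe set of the array was annotated to it alone, which held for 9 of the 10 among 18193 genes in all. No probe set was paired with Gnat3 in the annotation used, so gustducin, the taste G protein alpha subunit, was not analysed here. Total RNA came from the tongues of 3 adult C57BL/6J mice, an inbred strain, that drank 4NQO at 100 μg/ml for 8 weeks, and of 3 untreated adult C57BL/6J mice. Each tongue was hybridized to 1 Affymetrix mouse array. The values are log2 signals per probe set, normalized by the authors.

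Taste buds are small clusters of epithelial cells that sit in the fungiform, foliate and circumvallate papillae of the tongue. Type II cells detect sweet, umami and bitter compounds. Their receptors act through a G protein, a phospholipase C and an inositol trisphosphate receptor that releases calcium, which opens the channel TRPM5 and leads to ATP release. Type III cells detect sour and form synapses with nerve fibres, type I cells are glia-like and break down the ATP, and precursor cells at the base of the bud express the signalling ligand Sonic hedgehog. Taste cells are renewed throughout life from the surrounding tongue epithelium.

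A tongue is mostly muscle and squamous epithelium, and the arrays averaged over all its cells. The markers of squamous epithelium had a mean log2 signal over 7 genes of 12.1 to 12.5 on the 4NQO arrays and of 12.1 to 12.2 on the control arrays, and those of skeletal muscle, over 10 genes, of 9.85 to 10.7 on the 4NQO arrays and of 10.1 to 10.9 on the control arrays. Across all genes limma called 24, or 0.132%, at an adjusted p under 0.05, with 0.126% higher and 0.0055% lower in 4NQO-treated tongue. The difference between the 3′ and 5′ Gapdh control probe sets, which grows when transcripts are incomplete, was 1.07 on 4NQO 2 and 1.67 on control 3, against 0.086 to 0.47 on the other arrays. Lipf and Bpifa2, genes of the lingual salivary glands, gave strong signals in 4NQO 3, control 2 and control 3 but not in the other 3 tongues. They are set beside the taste genes at the end. With 3 against 3 tongues, a two-sided exact permutation test cannot give a p below 0.1. In bulk tissue, fewer cells of a type and less RNA per cell cannot be told apart.

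No taste bud cell gene was called different between 4NQO-treated and control tongue. Of the 9 measured genes, 0 passed limma's test at an adjusted p under 0.05, 0 had an unadjusted p under 0.05 and 0 were called by SAM, the permutation-based test named in the study's methods. At the unadjusted threshold, 10.4% of all genes were called, 6.68% higher and 3.74% lower. The groups overlapped for each of the 9 genes. Groups that did not overlap were found for 16.8% of all genes, 9.59% higher and 7.18% lower, and for 18.8% of the genes with readable signals on all 6 arrays, of which 0.152% passed the adjusted threshold. The median log2 fold change of the 9 genes was 0.02 and that of all 18193 genes was -0.01. The 9 standard errors ran from 0.10 to 0.52 on the log2 scale, and the smallest adjusted p was 0.582.

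A signal was taken as readable where it lay above the median of all 45101 probe sets of the same array, which was 4.45 to 4.55 on the 4NQO arrays and 4.57 to 4.60 on the control arrays. Only Plcb2, Itpr3 and Entpd2 lay above it on all 6 arrays, 3 of 9 genes, against 61.5% of all genes. Tas1r3 lay above it on 3 arrays and Shh on 1. Tas1r1, Trpm5, Pkd2l1 and Snap25 lay above it on 0 of 6 arrays, as did 31.3% of all genes. The gene nearest inside the limit was Plcb2, at 0.42 to 0.71 above the medians on the log2 scale, and the nearest outside was Tas1r3, at -0.39 to 0.15. For signals under the median, a small difference between groups does not show that the transcript was the same in both, because the probe set may report background only.

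**Figure D1:**
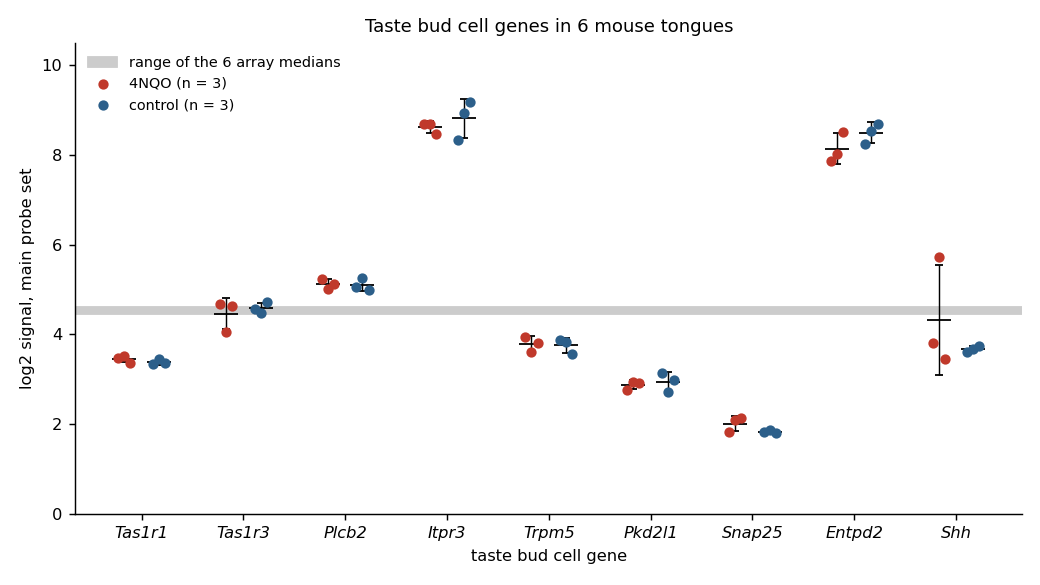
Log2 signal (y axis) of the main probe set of 9 taste bud cell genes (x axis), with 1 point for each of 3 4NQO-treated tongues (red, left) and 3 control tongues (blue, right), horizontal bars for means, error bars for SD and a grey band for the range of the 6 array medians. Itpr3, Entpd2 and Plcb2 lie above the band in every tongue, Tas1r1, Trpm5, Pkd2l1 and Snap25 lie below it in every tongue, and 1 point of Shh, from 4NQO 2, lies at 5.73.

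The promoters of the 3 readable genes and of Tas1r1, which was below the limit in every tongue, are shown for their CG content, a feature that the choice of genes did not use, which was high in Itpr3 and the same in the readable Plcb2 and in Tas1r1. They are the 250 bases before the start of the gene from RefSeq (GRCm38.p6), in which 7 of the 10 genes had an entry, Gnat3 among them. Snap25, Pkd2l1 and Shh are named only. Each CG dinucleotide, which reads the same on both strands, is in capitals.
Itpr3 (chr17:27057054-27057303, plus strand): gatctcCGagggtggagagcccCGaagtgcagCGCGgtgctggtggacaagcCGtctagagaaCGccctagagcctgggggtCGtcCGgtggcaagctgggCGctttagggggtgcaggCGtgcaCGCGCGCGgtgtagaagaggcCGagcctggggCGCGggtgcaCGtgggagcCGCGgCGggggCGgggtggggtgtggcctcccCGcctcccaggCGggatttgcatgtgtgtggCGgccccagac
Entpd2 (chr2:25395624-25395873, plus strand): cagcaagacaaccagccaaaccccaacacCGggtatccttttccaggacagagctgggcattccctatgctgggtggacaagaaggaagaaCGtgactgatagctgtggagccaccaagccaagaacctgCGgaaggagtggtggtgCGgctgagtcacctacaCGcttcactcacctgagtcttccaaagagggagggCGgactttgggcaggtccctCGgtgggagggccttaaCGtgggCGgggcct
Plcb2 (chr2:118728439-118728688, minus strand): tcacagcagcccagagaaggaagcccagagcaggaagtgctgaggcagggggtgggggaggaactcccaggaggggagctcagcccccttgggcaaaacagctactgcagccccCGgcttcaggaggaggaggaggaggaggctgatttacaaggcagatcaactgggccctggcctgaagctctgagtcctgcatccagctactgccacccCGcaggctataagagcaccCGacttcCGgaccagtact
Tas1r1 (chr4:152038491-152038740, minus strand): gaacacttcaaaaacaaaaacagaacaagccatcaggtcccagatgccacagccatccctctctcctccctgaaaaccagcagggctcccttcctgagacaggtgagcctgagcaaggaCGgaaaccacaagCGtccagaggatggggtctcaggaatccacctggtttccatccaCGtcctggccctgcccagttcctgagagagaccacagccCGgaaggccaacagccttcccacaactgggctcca
Itpr3 had 25 CG in 250 bases, a count that 10.7% of 32851 promoter entries reached, and Entpd2 had 9, which 40.3% reached. Plcb2, Tas1r1 and Trpm5 had 4 each, Tas1r3 had 5 and Gnat3 had 2, against a median of 6 over all entries. The promoters were also searched on both strands for TGACNNNGC, the core of the antioxidant response element that NRF2 binds, since the study was about the NRF2 pathway. The letters were found in 10.2% of all entries and in 1 of the 7, that of Entpd2. There they lie 93 to 101 bases before the start and read as TGACTCAGC on the opposite strand, as the capitals in this stretch mark.
Entpd2 (chr2:25395763-25395791, plus strand): tggtggtgcgGCTGAGTCAcctacacgct
This is a match of letters and not a measured site.

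Among the receptors, Tas1r1 and Tas1r3 encode the subunits of the umami receptor, and Tas1r3 also forms the sweet receptor with Tas1r2. Tas1r1 had log2 signals of 3.47, 3.51 and 3.37 in 4NQO-treated tongue and of 3.33, 3.45 and 3.35 in control tongue, and the groups overlapped. All 6 values were under the array medians, and the log2 fold change of 0.07 (standard error 0.12) is that of a signal that cannot be read. Tas1r3 had log2 signals of 4.67, 4.06 and 4.63 in 4NQO-treated tongue and of 4.56, 4.48 and 4.71 in control tongue. It was above the array median in 2 4NQO-treated tongues and in 1 control tongue, with 4NQO 2 the lowest of the 6. The log2 fold change of Tas1r3 was -0.13 (standard error 0.20, 95% confidence interval -0.59 to 0.33), and without 4NQO 2 it was 0.068.

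Plcb2 encodes phospholipase C beta-2, which taste receptors activate in type II cells and which blood cells also use. Its log2 signals were 5.24, 5.01 and 5.12 in 4NQO-treated tongue and 5.06, 5.26 and 4.99 in control tongue. The highest value was in control 2 and the lowest in control 3, so the control tongues spanned the treated ones. The log2 fold change was 0.02 (standard error 0.16), with a 95% confidence interval of -0.34 to 0.38, or 0.790-fold to 1.30-fold (adjusted p = 0.978 from limma, exact permutation p = 0.9). Of 9 leukocyte markers, 5 were higher and 1 was lower in 4NQO-treated tongue at an unadjusted p under 0.05, against 6.68% and 3.74% of all genes, and 0 passed limma's adjusted threshold or SAM. Their mean log2 signal was 5.81 to 6.71 on the 4NQO arrays and 5.40 to 5.87 on the control arrays, with Ptprc, the pan-leukocyte marker, at 6.05, 7.22 and 7.19 on the 4NQO arrays and at 5.81, 5.17 and 6.12 on the control arrays. The part of leukocytes in the signal of Plcb2 was not tested.

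Itpr3 encodes the type 3 inositol trisphosphate receptor, the calcium release channel of type II cells, which many other epithelia also make. Its log2 signals were 8.69, 8.69 and 8.46 in 4NQO-treated tongue and 8.34, 8.93 and 9.18 in control tongue. Control tongues held both the lowest and the highest value of Itpr3. The log2 fold change was -0.20 (standard error 0.22), with a 95% confidence interval of -0.70 to 0.30, or 0.614-fold to 1.23-fold (adjusted p = 0.776 from limma, exact permutation p = 0.5). Leaving out control 1 gave -0.44 (limma unadjusted p = 0.030) and leaving out control 3 gave -0.02, and neither passed limma's adjusted threshold. The interval is for the whole tongue and says nothing of taste cells alone.

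Trpm5 encodes the calcium-activated cation channel at the end of the type II pathway. Its brightest probe set had log2 signals of 3.95, 3.60 and 3.81 in 4NQO-treated tongue and of 3.87, 3.82 and 3.57 in control tongue, under the median of every array. The other 2 probe sets had log2 fold changes of -0.10 each, and that of the brightest was 0.03. None of the 3 was readable on all 6 arrays, and the groups overlapped for each.

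The marker genes of type III cells were both below the array medians. Pkd2l1, a channel of the polycystin family that marks sour-sensing cells, had log2 signals of 2.76, 2.94 and 2.92 in 4NQO-treated tongue and of 3.15, 2.71 and 2.98 in control tongue. Snap25, a SNARE protein of synaptic vesicle release that neurons also make, had log2 signals of 1.82, 2.08 and 2.13 in 4NQO-treated tongue and of 1.82, 1.86 and 1.81 in control tongue. For Snap25, 4NQO 2 and 4NQO 3 were above all control tongues and 4NQO 1 was not. Its log2 fold change was 0.18 (limma adjusted p = 0.582, standard error 0.10), and its second probe set gave 0.03. Among 39 olfactory receptor genes, 37 had a higher mean signal than Snap25 and 13 a higher one than Pkd2l1. Both thus lay among signals of genes taken here as background. Of 11 markers of peripheral nerve and ganglia, 0 passed limma or SAM and 0 had an unadjusted p under 0.05, with Stmn2 readable at 6.34 to 6.92 on the 4NQO arrays and at 6.29 to 7.03 on the control arrays, and the neurofilament gene Nefl under every array median.

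Entpd2, an ectonucleotidase of type I cells that degrades ATP, had the lowest log2 fold change of the 9 genes. Its log2 signals were 7.86, 8.02 and 8.52 in 4NQO-treated tongue and 8.23, 8.53 and 8.70 in control tongue. The 2 lowest values were in 4NQO 1 and 4NQO 2, while 4NQO 3 lay between control 1 and control 2. The log2 fold change was -0.35 (standard error 0.21), with a 95% confidence interval of -0.83 to 0.13, or 0.561-fold to 1.09-fold (adjusted p = 0.595 from limma, exact permutation p = 0.2). It was -0.55 without 4NQO 3 (limma unadjusted p = 0.025) and -0.22 without 4NQO 1. Without both arrays of largest Gapdh difference it was -0.19, and 0 of these passed limma's adjusted threshold. As for Itpr3, the interval is for the whole tongue and says nothing of taste cells alone.

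**Figure D2:**
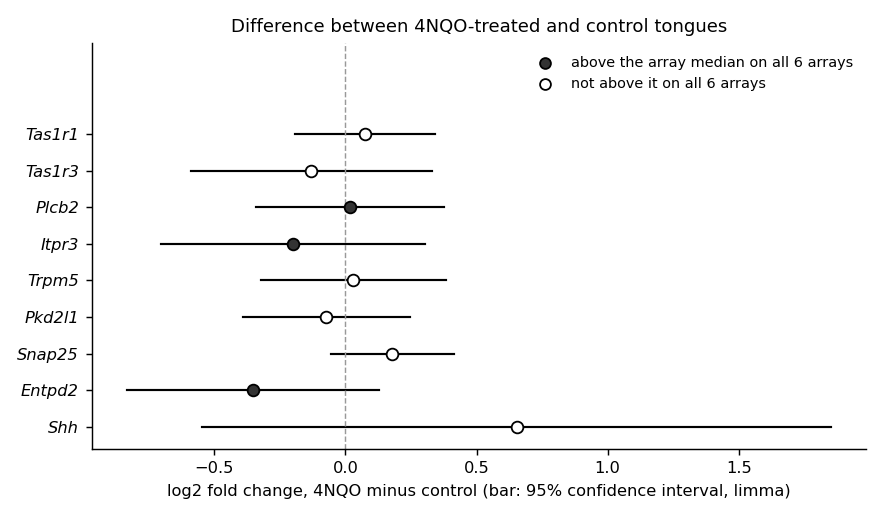
Log2 fold change, 4NQO minus control (x axis), of 9 taste bud cell genes (rows), with points for limma's estimate from 3 against 3 tongues and bars for its 95% confidence interval. Filled points are the 3 genes above the array median on all 6 arrays. Every interval includes 0, and the widest, that of Shh, runs from -0.55 to 1.85.

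Shh encodes Sonic hedgehog, which precursor cells in taste buds secrete and which maintains the buds. Its log2 signals were 3.80, 5.73 and 3.45 in 4NQO-treated tongue and 3.60, 3.68 and 3.73 in control tongue. 4NQO 2 alone was above its array median, and the other 5 tongues lay within 3.45 to 3.80. The log2 fold change was 0.65 (standard error 0.52, 95% confidence interval -0.55 to 1.85, adjusted p = 0.687 from limma), and without 4NQO 2 it was -0.047. The second probe set of Shh had a log2 signal of 2.69 on 4NQO 2, against 3.05 and 2.94 on the other 4NQO arrays. It lay under the median of every array and may report background only, so what it means for the high value of the main probe set cannot be told. 4NQO 2 is also 1 of the arrays of large Gapdh difference, at 1.07, and the part of this in the value was not tested.

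Genes that respond to Shh differed in where 4NQO 2 stood. Ptch1, the Hedgehog receptor and itself a target, had log2 signals of 7.26, 7.66 and 7.25 in 4NQO-treated tongue and of 7.14, 7.33 and 7.67 in control tongue, so that 4NQO 2 was the highest treated tongue but no higher than control 3. Gli1, a transcription factor and target of the pathway, had 5.64, 4.14 and 4.75 in 4NQO-treated tongue and 5.44, 5.89 and 4.86 in control tongue, so that 4NQO 2 was the lowest of the 6. Hhip, a target that binds and inhibits Hedgehog ligands, was lower in every 4NQO-treated tongue, at 4.20, 4.69 and 4.52, than in any control tongue, at 5.09, 4.82 and 5.43, with 4NQO 2 the highest treated tongue. Its log2 fold change of -0.64 (standard error 0.21) did not pass limma's test (adjusted p = 0.340), and 4NQO 1 and 4NQO 3 lay under their array medians for Hhip.

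**Figure D3:**
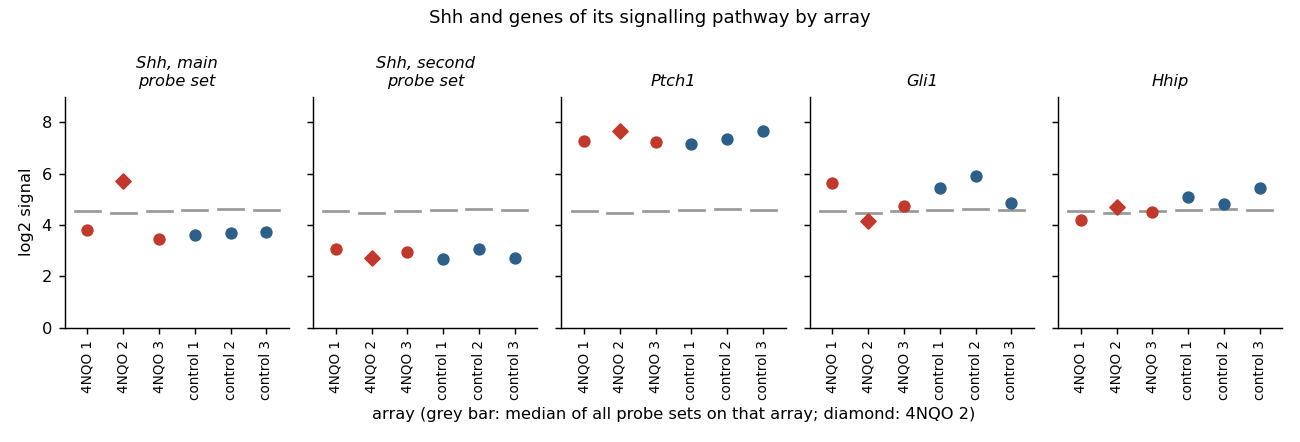
Log2 signal (y axis) of both probe sets of Shh and of Ptch1, Gli1 and Hhip on each of 6 arrays (x axis, 4NQO red, control blue, 4NQO 2 as a diamond), with a grey bar for the median of each array. On 4NQO 2 the main probe set of Shh is at 5.73 and the second, under every array median, at 2.69, while among the treated tongues 4NQO 2 is the highest for Ptch1, at 7.66, and Hhip, at 4.69, and the lowest for Gli1, at 4.14.

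Taste genes other than the 10 were read through 6 lists of 97 genes, of which 59 had a probe set of their own. Of the 59, 0 passed limma's test or SAM in either direction, and at the unadjusted threshold, which 10.4% of all genes met, 4 were higher and 3 lower. In 4 genes (Panx1, Slc1a3, Sox2 and Sufu) each 4NQO-treated tongue was above each control tongue, and in 3 (Gna14, Gnb3 and Hhip) each was below. Without overlap, 9.59% of all genes were higher and 7.18% lower, 16.8% together. At the unadjusted threshold, 6.68% of all genes were higher and 3.74% lower. Whether the 59 genes differ from these shares was not tested. The signal was above the array median on all 6 arrays for 28 and on 0 arrays for 23 of them.

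In the list of other type II cell genes, -0.08 was the median log2 fold change over 13 measured genes. Gna14, a G protein alpha subunit of type II cells in the posterior tongue, had log2 signals of 3.48, 3.52 and 3.66 in 4NQO-treated tongue and of 3.80, 4.06 and 4.25 in control tongue, all under the array medians. Gnb3, the G protein beta subunit that pairs with gustducin, had 4.28, 4.40 and 4.59 in 4NQO-treated tongue and 4.83, 4.68 and 5.01 in control tongue. For Gnb3, 4NQO 1 and 4NQO 2 lay under their array medians. The groups did not overlap for either gene, and the log2 fold changes of -0.48 for Gna14 and -0.42 for Gnb3 did not pass limma's test (adjusted p = 0.327 and 0.436). Pou2f3, the transcription factor that specifies type II cells, had a log2 fold change of -0.34 and overlapping groups, under the median of every array. Panx1, a membrane channel that can release ATP and is widely expressed, was higher in every 4NQO-treated tongue, at 6.76, 6.40 and 6.47, than in any control tongue, at 6.03, 6.28 and 6.01, and its log2 fold change of 0.44 did not pass limma's test (adjusted p = 0.433). The sweet receptor gene Tas1r2 and the gamma subunit gene Gng13 were under the median of every array, as were the bitter receptor genes Tas2r105, Tas2r108 and Tas2r119, the 3 of 35 bitter receptors measured.

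Of 13 other type III cell genes, 4 were readable on all 6 arrays and 8 on none, with a median log2 fold change of -0.14. Ddc and Slc18a2, for the synthesis and vesicular loading of monoamines, had log2 fold changes of -0.37 and -0.28, with signals under every array median. Vamp2, a vesicle protein present in many cells, had 0.32. Gad1, for synthesis of GABA, had 0.24, also with signals under every array median. Of these genes, 0 passed limma's test. Of 8 other type I cell genes, the median was 0.14. Slc1a3, a glutamate transporter of glia and type I cells, had log2 signals of 5.32, 5.06 and 5.26 in 4NQO-treated tongue and of 4.45, 5.02 and 4.47 in control tongue. Of these, control 1 and control 3 lay under their array medians. The groups did not overlap, and the log2 fold change of Slc1a3 of 0.57 (standard error 0.20) did not pass limma's test (adjusted p = 0.380). The sodium channel subunits Scnn1g and Scnn1a had 0.32 and 0.25 and Nt5e, which makes adenosine from AMP, had -0.35, all 3 with overlapping groups. Scnn1g lay under the array median in control 1 and control 2.

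In the list of taste progenitor and Hedgehog genes, with 17 measured, 13 log2 fold changes were positive and 4 negative, with a median of 0.12. Sox2, a transcription factor of taste progenitors that also marks tongue basal epithelium, had log2 signals of 6.29, 6.99 and 6.35 in 4NQO-treated tongue and of 6.00, 5.90 and 6.08 in control tongue. The groups did not overlap, and 4NQO 2 was the highest. Sox2 had a log2 fold change of 0.55 (limma adjusted p = 0.434). Sox9, another progenitor factor, had a log2 fold change of 0.75 with overlapping groups, and Sufu, a brake on Hedgehog signalling, had 0.31 with groups that did not overlap. None of these passed the test over all genes.

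**Figure D4:**
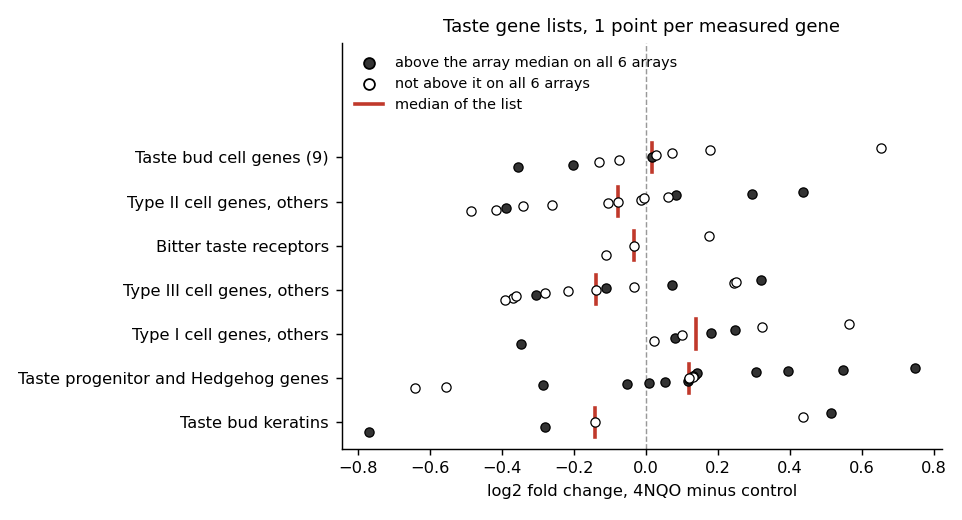
Log2 fold change, 4NQO minus control (x axis), of 9 taste bud cell genes and of the measured genes of 6 other taste gene lists (rows), with 1 point per gene, filled where the signal was above the array median on all 6 arrays, and a red bar for the median of each list. Medians run from -0.14 to 0.14, and 0 of the points passed the adjusted threshold.

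The keratins of taste buds differed widely among tongues of the same group. Krt8, a keratin of simple epithelia and taste cells, had log2 signals of 4.91, 4.37 and 7.79 in 4NQO-treated tongue and of 4.25, 6.17 and 5.35 in control tongue. Krt18, its partner, had 5.29, 4.92 and 7.90 in 4NQO-treated tongue and 4.76, 6.46 and 5.34 in control tongue. Both were highest in 4NQO 3 and then in control 2. Krt7, Krt19 and Krt20 had log2 fold changes of -0.77, -0.28 and -0.14, with overlapping groups, and Krt20 lay under the median of every array. Unlike Krt8 and Krt18, Krt7 was highest in control 1, at 7.59, and lowest in control 3, at 5.10.

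Genes of the lingual salivary glands also differed among tongues of the same group. These glands lie beside the circumvallate and foliate papillae at the back of the tongue and make simple keratins. The part of gland content in the keratin signals was not tested. Lipf, lingual lipase, had log2 signals of 2.45, 2.71 and 13.30 in 4NQO-treated tongue and of 2.39, 13.18 and 12.00 in control tongue. Bpifa2, a secreted protein of salivary glands, had 2.10, 2.80 and 12.31 in 4NQO-treated tongue and 2.31, 11.41 and 8.37 in control tongue. For Lipf and Bpifa2, 4NQO 3, control 2 and control 3 thus carried strong signals, and the other 3 tongues did not. The amylase gene Amy1 was highest in the same 3 tongues but readable in every tongue. It stood at 7.46, 6.25 and 12.50 in 4NQO-treated and 7.73, 11.83 and 9.97 in control tongue. Aqp5 was also highest in those 3 tongues, but in control 3, at 4.38, it was under the array median. Not every gland gene followed this, since Dcpp1 and Pip were under the array median in every tongue. Over 11 gland genes, the mean log2 signal was 3.85, 3.82 and 8.80 on the 4NQO arrays and 3.98, 8.13 and 6.61 on the control arrays. It was thus highest in 4NQO 3, control 2 and control 3. Of these genes, 0 passed limma's test or SAM, with 0 at an unadjusted p under 0.05.

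Tas1r1, Trpm5, Pkd2l1 and Snap25 stayed under the array medians in the tongues with strong Lipf and Bpifa2 signals as in the others. Plcb2 lay between 4.99 and 5.26 in all 6. Entpd2 had its 3 highest values, 8.52, 8.53 and 8.70, in 4NQO 3, control 2 and control 3, and Itpr3 had its 2 highest in control 2 and control 3 but was at 8.46 in 4NQO 3. The sources used here do not say which stretch of each tongue was taken for RNA, and the part of gland content in the levels of Entpd2 was not tested.

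**Figure D5:**
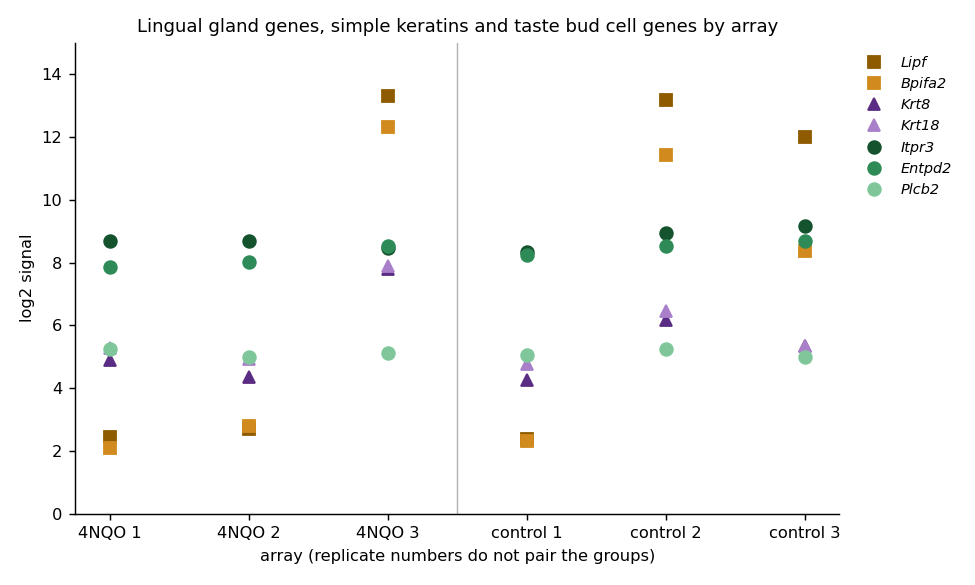
Log2 signal (y axis) on each of 6 arrays (x axis, 4NQO left, control right) of 2 gland genes (Lipf and Bpifa2, squares), 2 simple keratins (Krt8 and Krt18, triangles) and the 3 readable taste bud cell genes (circles). Lipf is at 13.30, 13.18 and 12.00 in 4NQO 3, control 2 and control 3 and between 2.39 and 2.71 in the other tongues, while Plcb2 stays between 4.99 and 5.26.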

How the data were processed

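Gene expression was measured in 3 tongues of 4NQO-treated and 3 of control mice with Affymetrix mouse arrays, 1 array per mouse, so that p-values measure the spread between mice. The values deposited by the authors are log2 signals, 1 per probe set and array, already normalized. The method of normalization and the scan batches are not given in the sources used here. Of 45101 probe sets, 34945 were annotated to 1 gene by the platform annotation, and the brightest probe set on average over the 6 arrays stood for each of 18193 genes. Groups were compared with limma 3.58.1 in R 4.3.3 (lmFit, and eBayes with a trend on intensity), adjusting by Benjamini-Hochberg over all 18193 genes, a threshold of 0.05 and no filter on dim genes. Intervals are limma's 95% intervals for single genes. The values are array signals and not counts. The median standard error was 0.164 over all genes and 0.173 over those above the array median on all 6 arrays. The members, lists and tests were chosen with earlier results of these data known. The text names all members, and of each other taste list the genes with the smallest p, at most 4. Tas1r2, Gng13, Ptch1, Gli1, Krt8, Krt18 and the example markers of other cells were named after their values were seen. The test was checked on simulated data. Alternatives changed the normalization, filtered dim genes, took other probe sets or variance models, blocked on replicate number, left out arrays, or used SAM with all 20 label permutations. Replicate numbers were not taken to pair the tongues, and the sample labels do not say whether they do.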

Additional observations from a re-analysis of the deposited data

How the results depend on the processing

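The number of taste bud cell genes past the threshold was 0 under every alternative, among them limma with the replicate number as a block, each array left out, SAM and each of 13 probe sets on its own. At an unadjusted p under 0.05 it was 1 with arrays centred or without control 1, 4NQO 1 or 4NQO 3, and 0 in limma's other refits by gene. That gene was Snap25, higher, with arrays centred or without 4NQO 1. It was Itpr3 without control 1 and Entpd2 without 4NQO 3, both lower. The number above the median on all 6 arrays was 3, and 2 against the median of the main probe sets of all genes, under which Plcb2 fell. Among all genes, limma called 24, and 65 with arrays centred on their medians, 37 with dim genes left out, 47 with a robust variance model, 2 with the replicate block, 4 without both arrays of largest Gapdh difference and 83 in SAM. Leaving out 1 array gave 0 to 27 genes, with 0 without control 2 (1333 at an unadjusted p under 0.05), 1 without 4NQO 2 and 10 without 4NQO 1. Same-numbered tongues had correlations of 0.29, -0.51 and 0.05 in their deviations from the group means, so the number was not taken to pair them.

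Of 133 fold changes of the 9 genes under alternatives, 119 kept their sign and 14 did not, and the cause was not tested. Leaving out 1 array gave log2 fold changes of -0.064 to 0.12 for Trpm5, -0.041 to 0.097 for Plcb2, -0.24 to 0.068 for Tas1r3, -0.19 to 0.028 for Pkd2l1 and -0.047 to 1.09 for Shh. Without both arrays of largest Gapdh difference, Tas1r3 was at 0.13 and Shh at -0.017. Trpm5 was at -0.058 with the mean of its probe sets and at -0.10 with each of the other probe sets. Pkd2l1 was at 0.0014 with arrays centred. Tas1r1, Itpr3, Entpd2 and Snap25 kept their direction under all alternatives that gave a value. Centring moved the median log2 fold change of all genes to 0.061. The dim filter left 3 of the 9 genes to test.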

Other observations

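Tuft cells, chemosensory cells of other epithelia that share Trpm5, Plcb2 and Pou2f3 with type II taste cells, were read through 8 measured markers. 0 passed limma's test or SAM, 0 had an unadjusted p under 0.05, and the median log2 fold change was 0.01. Avil, an actin-binding protein, had log2 signals of 6.05, 6.53 and 6.22 in 4NQO-treated tongue and of 5.64, 5.83 and 6.21 in control tongue, with a log2 fold change of 0.37 (standard error 0.21). Il25, the cytokine of tuft cells, and Chat, which makes acetylcholine, were under the median of every array.

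Across the 6 tongues, the 3 readable taste bud cell genes were on average highest in control 3 and control 2 and lowest in control 1. Single genes departed from this mean, since Plcb2 was lowest in control 3, at 4.99, and Entpd2 in 4NQO 1, at 7.86. Of 11181 other genes above the median on all 6 arrays, those whose signals followed this mean pattern most closely were Mical1, Wnk2, Dock6, Phldb1 and Kank2, with Pearson's r of 0.989 to 0.996 over 6 tongues, picked as the highest of all genes compared. Mical1, an enzyme that oxidizes actin, had log2 signals of 6.14, 6.15 and 6.33 in 4NQO-treated tongue and of 6.05, 6.72 and 6.88 in control tongue. Wnk2, a protein kinase, had 8.09, 8.03 and 8.26 in 4NQO-treated tongue and 8.04, 8.61 and 8.63 in control tongue.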
